A study of Mus musculus with 2 samples.

Results

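Transcript levels of 8 lysophospholipid acyltransferase genes were compared in small intestinal epithelium between 1 mouse lacking Myh9 and 1 control mouse. The 8 genes were Mboat1, Mboat2, Mboat7, Lpcat3, Lpcat4, Agpat2, Agpat3 and Lpgat1, each matched by its symbol among 12631 gene rows, and each had 1 row. They were selected on the level of Mboat1, which is among the highest genes of the knockout relative to the control, so every difference below is a description of this contrast and none is tested. The knockout animal was Myh9-/- and the other was labelled wild type. Both were C57BL/6 mice of 8 weeks, both were injected with tamoxifen on 5 consecutive days, and the detached epithelium was taken for RNA at day 5. The labels name neither the driver of the recombinase nor its target cells nor the deleted exons. A single sample in each group leaves no replicate error to set a difference against.

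Membrane phospholipids are remodelled by the cycle of Lands, in which a phospholipase A removes a fatty acid and a lysophospholipid acyltransferase puts another in its place. The enzymes belong to a pair of unrelated families, the membrane-bound O-acyltransferases (MBOAT) and the AGPAT family, and each enzyme prefers certain head groups and fatty acids. Through this choice they set how saturated a membrane is. In the enterocyte they also supply the polyunsaturated phosphatidylcholine that coats lipid droplets and chylomicrons, and the AGPAT enzymes of the synthesis pathway make phosphatidic acid, the precursor of triglycerides and of all glycerophospholipids.

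Mboat1 and Lpcat4 were far higher in the Myh9 knockout, Mboat2 was higher at a very low level, and Lpgat1 was slightly above the line used for a call. Agpat3 was lower. Lpcat3, Mboat7 and Agpat2 differed by less than 1.4-fold, the threshold that the labels give for differential expression. A level here is the deposited expression value less 1, which the authors appear to have added, since no deposited value was below 1. Its unit is unstated, and since it is not known whether that unit is per length, each gene is compared between the samples and no order of levels among genes is given. Folds were taken after 1 was added to each level, which understates differences at low levels, and a gene is called when its fold reaches 1.4 in either direction and its larger level is at least 1.

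Of the 8 genes, 4 were called higher, 1 was called lower and 3 lay between, so that 62.5% were called, against 32.3% of all 12152 genes that reached a level of 1. In the background, 15.9% of genes were called higher and 16.3% lower. Since the members were assembled around a gene with a large difference in this very comparison, nothing is read from that share. All 8 reached a level of 1, although Mboat2 did so only in the knockout, which fixed its direction. Their median log2 fold was 0.41, against -0.0037 over all 12152 genes. Of the 4 MBOAT genes, 2 were called higher and none was called lower. Of the 4 AGPAT genes, 2 were called higher and 1 was called lower.

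**Figure D1:**
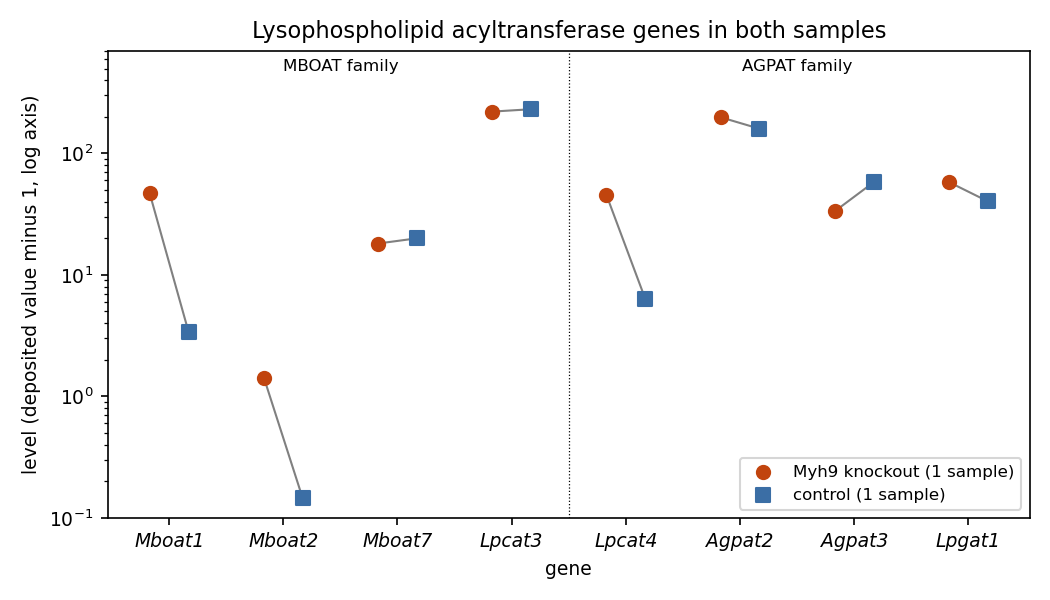
Level of each of the 8 acyltransferase genes (deposited value minus 1, logarithmic axis) in the Myh9 knockout (circles) and the control (squares), 1 sample each, joined by a line per gene. Mboat1, Mboat2 and Lpcat4 have steep lines, with 46.8, 1.42 and 45.4 in the knockout, against 3.40, 0.14 and 6.34 in the control, while Lpcat3, Mboat7 and Agpat2 have nearly level ones.

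Mboat1 encodes an enzyme that places mainly oleate, a monounsaturated fatty acid, on lysophosphatidylethanolamine and lysophosphatidylserine. Its level was 46.8 in the Myh9 knockout, against 3.40 in the control. The difference was 10.9-fold on level plus 1, a log2 fold of 3.44, and the plain ratio of the levels was 13.8. Mboat1 stood at rank 17 of the 12152 genes ordered from the highest fold down. The gene lies on the plus strand of chromosome 13 from 30136489 to 30246717 (ENSMUSG00000038732.15, protein coding, 13 exons in its longest coding transcript, GENCODE M21 on mm10).

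Mboat2 encodes the closest relative of Mboat1, which acts on lysophosphatidylethanolamine and lysophosphatidylcholine, also with oleate. In cultured human cancer cells both enzymes have been described as suppressors of ferroptosis, a form of cell death driven by peroxidation of polyunsaturated phospholipids. Mboat2 was at 1.42 in the knockout and at 0.14 in the control. On level plus 1 the difference was 2.12-fold (log2 fold 1.08), while the plain ratio was 9.85, so its size rests on the constant that is added. It stood at rank 456. Mboat2 spans 24830879 to 24964397 on the plus strand of chromosome 12 (ENSMUSG00000020646.17).

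Lpcat4 encodes an AGPAT family enzyme that acylates lysophosphatidylcholine and lysophosphatidylethanolamine, again with a preference for oleate. Its level was 45.4 in the knockout, against 6.34 in the control, a 6.32-fold difference on level plus 1 and a log2 fold of 2.66. Lpcat4 stood at rank 50 of 12152, the second highest of the 8 members on level plus 1. The plain ratio of its levels was 7.16, below the 9.85 of Mboat2, so that order rests on the constant that is added. The gene is compact and spans 112239468 to 112247111 on the plus strand of chromosome 2 (ENSMUSG00000027134.4, 14 exons). 

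Lpgat1 encodes an acyltransferase of the endoplasmic reticulum first described on lysophosphatidylglycerol. It was at 58.0 in the knockout and 40.3 in the control, 1.43-fold higher with a log2 fold of 0.51, just above the threshold. This call depended on the scaling of the libraries, since the log2 fold was 0.48 when the samples were matched on their upper quartile, below the 0.49 that 1.4-fold corresponds to. Lpgat1 lies on chromosome 1 from 191717834 to 191784255, plus strand (ENSMUSG00000026623.16).

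Agpat3 was the 1 member called lower. It encodes an enzyme that converts lysophosphatidic acid to phosphatidic acid and is known in mice for a preference for polyunsaturated fatty acids. Agpat3 was at 33.4 in the knockout and at 57.9 in the control, 1.71-fold lower with a log2 fold of -0.78. Counted from the lowest fold it stood at rank 906 of 12152. At a 2-fold threshold it was not called. It lies on the minus strand of chromosome 10 from 78269178 to 78352489 (ENSMUSG00000001211.15).

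Agpat2, which catalyses the same step and whose loss causes congenital lipodystrophy in humans, was at 198 in the knockout and 160 in the control. The fold was 1.24 and the log2 fold 0.31, short of the threshold. The log2 folds of Agpat2 and Agpat3 had opposite signs under each of the settings tried. Agpat2 lies on chromosome 2 from 26593057 to 26604417, minus strand (ENSMUSG00000026922.13). Its 1.24-fold and the 1.43-fold of Lpgat1 are the values next to the 1.4-fold line on either side of it.

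Lpcat3 encodes the main enzyme that places linoleate and arachidonate on lysophosphatidylcholine. In mouse enterocytes it is required for normal lipid uptake and chylomicron secretion, and it is a known target of the oxysterol receptors LXR. Its level was 221 in the knockout and 231 in the control, a log2 fold of -0.06, whose sign turned to 0.05 when the libraries were rescaled without their most abundant genes. Lpcat3 spans 124663027 to 124704418 on the plus strand of chromosome 6 (ENSMUSG00000004270.13).

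Mboat7 encodes the enzyme that puts arachidonate on lysophosphatidylinositol. It was at 18.1 in the knockout and 19.997 in the control, a log2 fold of -0.13. Mboat7 lies on chromosome 7 from 3677789 to 3693523, minus strand (ENSMUSG00000035596.14).

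**Figure D2:**
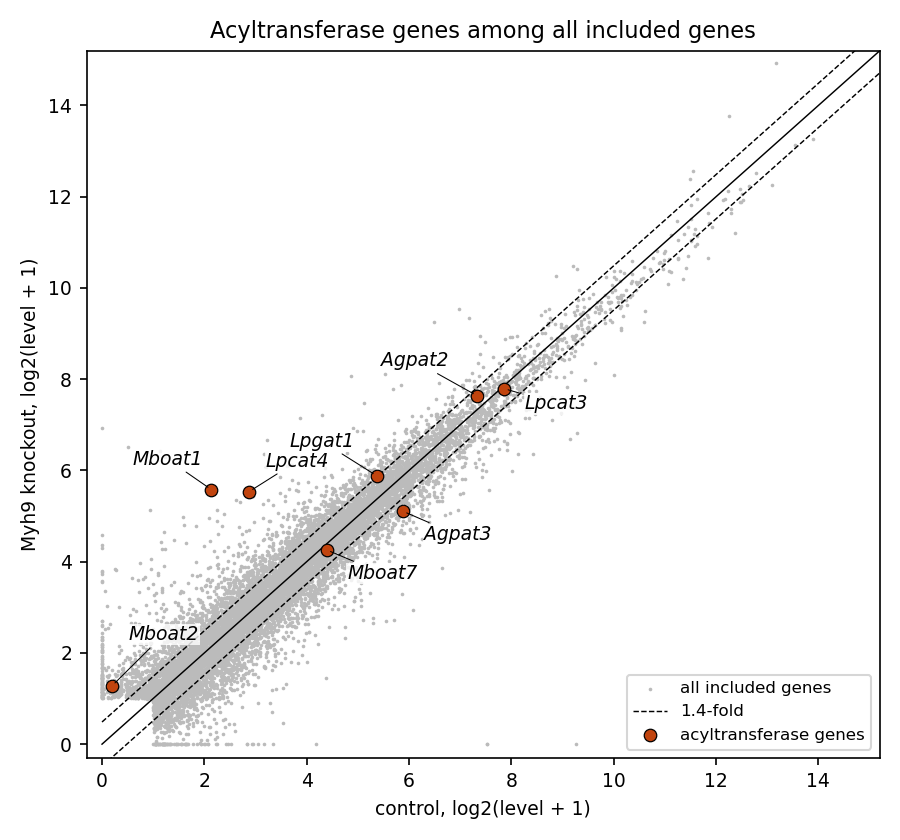
Each grey point is 1 of the 12152 genes that reached a level of 1, placed by log2(level + 1) in the control (horizontal) and in the Myh9 knockout (vertical), with the 8 acyltransferase genes labelled. The solid line marks equal levels and the dashed lines 1.4-fold; Mboat1 (log2 fold 3.44) and Lpcat4 (2.66) stand above the bulk of genes of their control level, and Lpcat3, Mboat7 and Agpat2 lie between the dashed lines.

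Reads of near-identical copies can be assigned to the wrong gene, so the transcripts were compared by sequence. In the longest coding transcript of Mboat1, none of its 2856 words of 50 bases occurred in a transcript of another annotated gene on either strand, and the same held for Mboat2, Lpcat4, Agpat3 and Lpgat1. In Lpcat3, 12.8% of the words stood on the opposite strand in Emg1, and in Mboat7 6.36% stood in Tsen34. Emg1 was at 87.6 in the knockout and 60.8 in the control, and Tsen34 was at 24.3 in the knockout and 30.9 in the control. In Agpat2, 1.04% of the words stood in Egfl7, which was at 6.47 in the knockout and 3.83 in the control. The labels do not say whether reads were counted by strand, and the part of these neighbours in the values was not tested.

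The stretches upstream of the start sites are shown for the 3 members with the highest folds and, for contrast, for Agpat3, the member called lower. Each run is the 250 bases before the RefSeq start, 5′ to 3′ on the strand of the gene, from RefSeq sequence of GRCm38.p6, the assembly that mm10 denotes. The windows of Lpcat4, Mboat2 and Agpat3 lie inside the gene spans given above, since GENCODE places the outermost start of these genes further upstream. All 8 members matched the promoter table, Lpgat1 with 2 start sites, which gave 9 windows. Capitals mark matches, on either strand, to 8 motifs: AP-1 (TGANTCA), TEAD (GGAATG), the GC box (GGGCGG), the CCAAT box (CCAAT), the TATA box (TATAAA), the E-box (CACGTG), the antioxidant response element (TGACNNNGC) and the sterol response element (TCACNCCAC).
Mboat1, chr13:30136240-30136489, plus strand: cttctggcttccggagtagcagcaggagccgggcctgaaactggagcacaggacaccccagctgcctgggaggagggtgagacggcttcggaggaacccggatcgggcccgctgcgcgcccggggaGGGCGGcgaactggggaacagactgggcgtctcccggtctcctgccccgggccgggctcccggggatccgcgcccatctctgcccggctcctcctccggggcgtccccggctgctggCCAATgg
Lpcat4, chr2:112239591-112239840, plus strand: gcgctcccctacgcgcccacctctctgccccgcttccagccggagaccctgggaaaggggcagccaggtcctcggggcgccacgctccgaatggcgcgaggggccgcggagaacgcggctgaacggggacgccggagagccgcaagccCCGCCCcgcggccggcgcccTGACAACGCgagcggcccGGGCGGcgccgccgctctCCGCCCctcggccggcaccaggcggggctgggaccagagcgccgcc
Mboat2, chr12:24831349-24831598, plus strand: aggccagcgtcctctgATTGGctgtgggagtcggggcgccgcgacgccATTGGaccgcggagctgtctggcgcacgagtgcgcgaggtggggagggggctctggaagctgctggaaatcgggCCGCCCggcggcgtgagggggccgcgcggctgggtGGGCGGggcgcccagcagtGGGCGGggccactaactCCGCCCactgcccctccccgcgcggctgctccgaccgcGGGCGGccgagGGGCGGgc
Agpat3, chr10:78351701-78351950, minus strand: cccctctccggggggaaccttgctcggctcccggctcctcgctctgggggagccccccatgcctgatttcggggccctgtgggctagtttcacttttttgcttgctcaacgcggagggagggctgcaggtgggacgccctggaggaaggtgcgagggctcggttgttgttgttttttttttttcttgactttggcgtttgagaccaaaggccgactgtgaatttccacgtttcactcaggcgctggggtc

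The window of Mboat1 held a GC box beginning 124 bases before the start and a CCAAT box 7 bases before it. The window of Lpcat4 held 3 GC boxes and, beginning 82 bases before the start, the letters of an antioxidant response element, which 10.2% of all 32851 promoter windows also hold and no other window of the members does. The window of Mboat2 held 6 GC boxes and 2 CCAAT boxes. None of the 8 motifs stood in the window of Agpat3. The matches shown do not overlap each other. Across the 9 windows of the members, 8 held a GC box, against 32.7% of all windows, and 3 held a CCAAT box, against 33.8%. All windows here were neither limited to genes expressed in these samples nor matched to the members on G and C content. No member window held the AP-1, TEAD, TATA, E-box or sterol letters, which stood in 6.75%, 12.6%, 12.4%, 6.02% and 1.05% of all windows. The G and C content was 73.2% for Mboat1, 79.6% for Lpcat4, 77.6% for Mboat2 and 59.6% for Agpat3, against a median of 52.4% over all windows. A match to a motif is a match of letters and says nothing of binding, and the GC box stood in members called higher and in members that were not called alike.

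By level in the 2 samples, the 5 genes nearest to Mboat1 were Anxa3, S100a14, Areg, Foxn3 and Gsta3. Nearness was the Euclidean distance between log2(level + 1) over these 2 samples, which sets levels of different genes side by side although their unit may not be per length, and 2 samples allow no statement on whether genes vary together. Anxa3, which encodes annexin A3, was the nearest at a distance of 0.46, with 34.0 in the knockout and 3.74 in the control. S100a14 was at 39.9 in the knockout and 5.17 in the control. Areg, an EGF receptor ligand, was at 32.2 in the knockout and 4.23 in the control. Foxn3, a forkhead transcription factor, was at 38.8 in the knockout and 5.49 in the control, and Gsta3, a glutathione transferase, at 29.8 in the knockout and 3.24 in the control. Folds of the 5 ranged from 6.13 to 7.40, all below that of Mboat1.

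Other genes of phospholipid metabolism were taken from 11 lists drawn up by function. Over these lists, counting each gene once, 126 genes reached a level of 1, of which 18 were called higher and 28 lower. That is 36.5% called, against 32.3% of all genes, with a median log2 fold of -0.04. The highest log2 fold among the 126 was 1.44, that of Scd1, below those of Mboat1 and Lpcat4. The lowest was -1.90, that of Slc27a2. Since the members were assembled around Mboat1, selected on this contrast, nothing is read from their place above these genes. Multiplying the knockout by 1.08, the factor that matches the libraries without mitochondrial-genome and the most abundant genes, ended the lower call of 12 of these 28 genes. Those named below are Dgat1, Gnpat, Plpp1, Pnpla7, Slc44a1, Slc44a3, Slc27a1, Slc27a4 and Abcg8. Slc27a4 also lost its call when the libraries were matched on their median, and Elovl6 lost its higher call under the upper-quartile scaling. Under the factor of 1.08, 5 genes became higher, among them Gpam and Ptgs1. With that factor 23 of the 126 genes were called higher and 16 lower, and their median log2 fold was 0.06. The balance of higher and lower calls in these lists thus turned with the scaling.

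**Figure D3:**
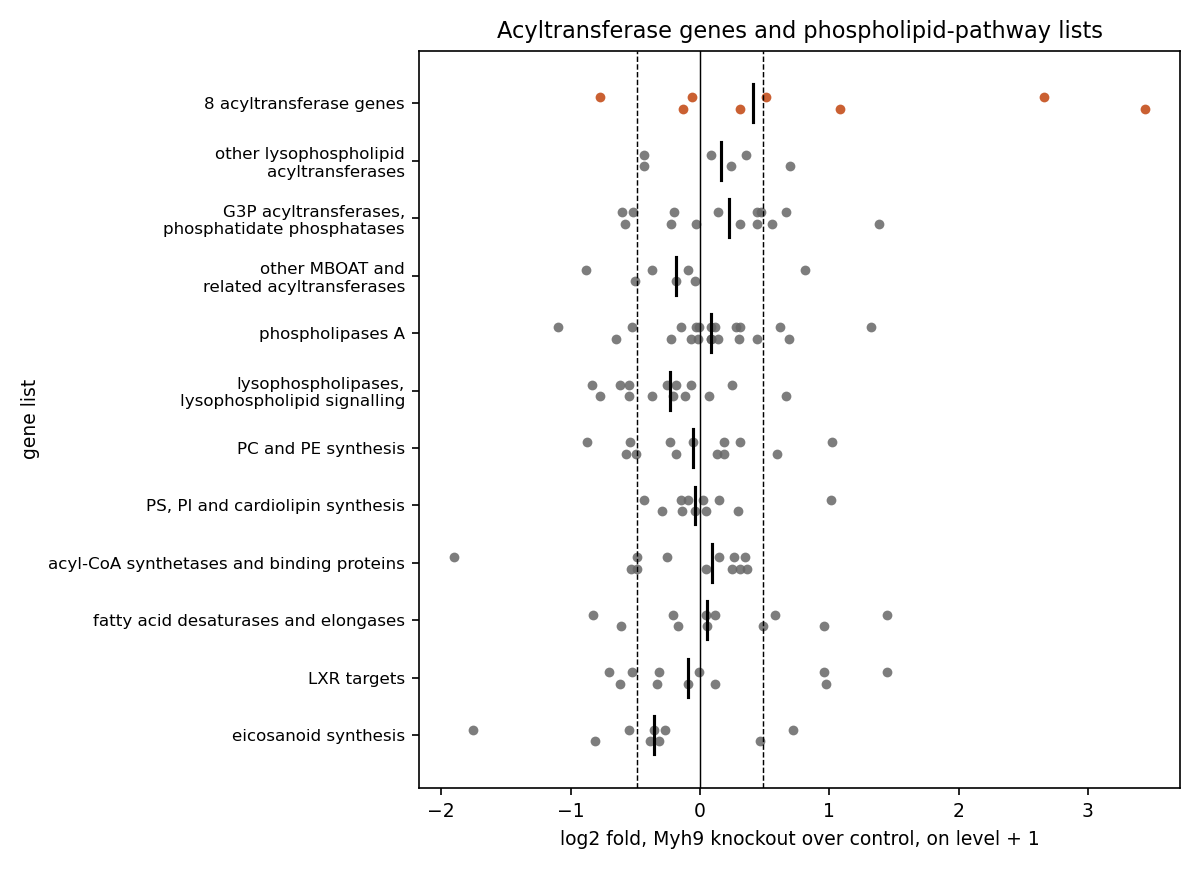
Log2 fold on level plus 1 (Myh9 knockout over control, horizontal) of the 8 acyltransferase genes (top row) and of the genes of each of 11 phospholipid-pathway lists (rows below), 1 point per gene that reached a level of 1; heavy ticks are medians and dashed lines mark 1.4-fold. Mboat1 (3.44) and Lpcat4 (2.66) lie to the right of every point of the 11 lists, whose medians run from -0.35 (eicosanoid synthesis) to 0.23 (glycerol-3-phosphate acyltransferases and phosphatidate phosphatases). The members were assembled around Mboat1, selected on this contrast, so nothing is read from that position.

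Of 6 other lysophospholipid acyltransferase genes that reached a level of 1, 1 was called higher and none lower, with a median log2 fold of 0.17. The share called was 16.7%, against 32.3% of all genes. Agpat4, another enzyme that makes phosphatidic acid, was at 16.2 in the knockout and 9.59 in the control, 1.62-fold higher. Agpat1, which catalyses the same step, was at 67.5 in the knockout and 63.3 in the control. Lpcat1, the enzyme known for saturated phosphatidylcholine in lung surfactant, stayed below 1, with 0.81 in the knockout and 0.80 in the control.

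In the list of glycerol-3-phosphate acyltransferases and phosphatidate phosphatases, 3 of 14 genes were called higher and 3 lower, with a median of 0.23. The share called was 42.9%, against 32.3% of all genes. Agps, which forms the ether bond of plasmalogens, was at 23.4 in the knockout and 8.33 in the control, 2.61-fold higher. Gnpat, which acts just before Agps in that pathway, was at 16.9 in the knockout and 24.7 in the control, 1.43-fold lower. Plpp3, a lipid phosphate phosphatase, was at 2.57 in the knockout and 1.25 in the control, while Plpp1 of the same family was at 42.5 in the knockout and 64.1 in the control. Of the enzymes that begin glycerolipid synthesis, Gpam was at 4.01 in the knockout and 2.69 in the control, Gpat3, listed under its older symbol Agpat9, at 44.4 in the knockout and 40.2 in the control, and Gpat4 at 11.3 in the knockout and 13.4 in the control, each within 1.4-fold. Lpin1, a phosphatidate phosphatase, was also within it, at 3.13 in the knockout and 2.32 in the control. Gpd2, the mitochondrial glycerol-3-phosphate dehydrogenase, was called higher, at 66.4 in the knockout and 44.9 in the control. Gpd1l, a relative of the cytosolic enzyme, was called lower, at 21.9 in the knockout and 33.7 in the control.

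Relatives of the MBOAT enzymes act on sterols, diacylglycerol or proteins. Of 7 genes in the list of MBOAT and related acyltransferases, 1 was called higher and 2 lower, with a median of -0.18. The share called was 42.9%, against 32.3% of all genes. Dgat1, the MBOAT enzyme that makes most triglyceride in enterocytes, was at 408 in the knockout and 579 in the control, 1.42-fold lower. Dgat2, an unrelated enzyme with the same product, was at 119 in the knockout and 67.4 in the control, 1.76-fold higher. Soat1, which esterifies cholesterol, was at 15.4 in the knockout and 15.9 in the control. Mogat1 was at 0.52 in the knockout and 1.79 in the control, and was included only through the control.

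Phospholipases A provide the lysophospholipids. Of 21 such genes, 3 were called higher and 3 lower, which is 28.6% called, near the 32.3% of all genes, and the median was 0.09. Pla2g5, a secreted phospholipase A2, was at 29.7 in the knockout and 11.3 in the control, 2.50-fold higher. Prdx6, a peroxiredoxin that also has phospholipase A2 activity and reduces phospholipid hydroperoxides, was at 249 in the knockout and 154 in the control. Plb1, a brush border phospholipase of fat digestion, was at 38.2 in the knockout and 83.1 in the control, 2.14-fold lower. Pla2g4a, the cytosolic enzyme that releases arachidonate, was at 4.76 in the knockout and 3.74 in the control, and Pla2g6 at 9.27 in the knockout and 11.0 in the control, neither past the threshold. Pla2g16 was at 21.5 in the knockout and 34.3 in the control, and Pnpla7, a lysophospholipase, at 2.72 in the knockout and 4.34 in the control. Pla2g7 was at 1.28 in the knockout and 0.48 in the control, and was included only through the knockout.

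The next list held genes that degrade lysophospholipids or sense them. Of its 14 genes, 5 were called lower and 1 higher (42.9% called, against 32.3% of all genes). The median was -0.23, and under the factor of 1.08 the lower calls fell to 3. Gde1, a glycerophosphodiesterase, was at 27.8 in the knockout and 50.3 in the control, 1.78-fold lower, and Acp6, a mitochondrial phosphatase of lysophosphatidic acid, was at 36.7 in the knockout and 63.4 in the control. Lpar1, a receptor for lysophosphatidic acid, was at 5.19 in the knockout and 8.48 in the control. Gdpd3, which releases lysophosphatidic acid, was the 1 higher gene, at 3.23 in the knockout and 1.66 in the control. Lypla1, a cytosolic thioesterase described as a lysophospholipase, was at 164 in the knockout and 186 in the control.

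Head group synthesis differed gene by gene. Of 13 genes for phosphatidylcholine and phosphatidylethanolamine synthesis, 2 were called higher and 4 lower (46.2% called, against 32.3% of all genes). Their median was -0.06. Ept1, which completes phosphatidylethanolamine synthesis, was at 67.1 in the knockout and 32.6 in the control, 2.03-fold higher. Chpt1, its counterpart for phosphatidylcholine, was at 29.2 in the knockout and 54.2 in the control, 1.83-fold lower. Chka, the choline kinase that begins the pathway, was at 42.2 in the knockout and 27.6 in the control, 1.51-fold higher, and the choline transporter-like genes Slc44a1 (42.4 in the knockout, 62.3 in the control) and Slc44a3 (17.8 in the knockout, 26.9 in the control) were lower, although under the factor of 1.08 they were 1.35-fold and 1.38-fold lower and not called. Pcyt1a, which sets the rate of phosphatidylcholine synthesis, was at 53.4 in the knockout and 46.8 in the control. Pcyt2, its ethanolamine counterpart, was at 151 in the knockout and 138 in the control, and Cept1 at 27.3 in the knockout and 31.1 in the control.

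Of 11 genes for phosphatidylserine, phosphatidylinositol and cardiolipin synthesis, 1 was called higher and none lower (9.09% called, against 32.3% of all genes). Their median was -0.04. The higher gene was Pgs1, which begins the synthesis of phosphatidylglycerol and cardiolipin, at 23.9 in the knockout and 11.3 in the control, 2.02-fold higher. Ptdss1, a phosphatidylserine synthase, was at 32.2 in the knockout and 39.7 in the control. Cdipt, which makes phosphatidylinositol, was at 83.6 in the knockout and 81.0 in the control, and Crls1, the cardiolipin synthase, at 25.0 in the knockout and 20.1 in the control.

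The fatty acids that the acyltransferases use are activated and desaturated by other enzymes. Among 12 genes of acyl-CoA synthetases and binding proteins, none was called higher and 3 were lower (25.0% called, against 32.3% of all genes). Their median was 0.10. Slc27a2, a very long chain acyl-CoA synthetase, was at 7.99 in the knockout and 32.6 in the control, 3.73-fold lower. Slc27a4, the main fatty acid transport protein of enterocytes, was at 184 in the knockout and 258 in the control, and Slc27a1 at 1.96 in the knockout and 3.28 in the control. Under the factor of 1.08 neither was called, at 1.30-fold and 1.37-fold lower, and Slc27a4 stood at a log2 fold of -0.48 after median scaling. Acsl5 was at 439 in the knockout and 365 in the control, and Acsl4, which activates arachidonate and is known from ferroptosis, at 1.30 in the knockout and 0.85 in the control, neither past the threshold.

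Of 11 desaturase and elongase genes, 4 were called higher and 2 lower (54.5% called, against 32.3% of all genes), with a median of 0.05. Scd1, a stearoyl-CoA desaturase that makes oleate, was at 4.48 in the knockout and 1.01 in the control, 2.72-fold higher, and Scd2, of the same activity, was at 47.9 in the knockout and 24.2 in the control, 1.95-fold higher. Fads2, the first enzyme of polyunsaturated fatty acid synthesis, was at 64.1 in the knockout and 114 in the control, 1.77-fold lower. Fads1, which acts later and forms arachidonate, was at 12.1 in the knockout and 19.0 in the control, 1.52-fold lower. Fads3 was at 4.78 in the knockout and 2.86 in the control, and Elovl6, the elongase ahead of the stearoyl-CoA desaturases, at 46.5 in the knockout and 32.9 in the control, 1.40-fold higher.

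Lpcat3 was set beside other targets of LXR. Of 11 genes in that list, which also holds the receptors Nr1h2 and Nr1h3, 3 were called higher and 3 lower. The share called was 54.5%, against 32.3% of all genes, and the median was -0.09. Scd1 and Scd2, which also stand in the desaturase list, were higher, as was Apoe, at 14.3 in the knockout and 6.80 in the control. The sterol exporter genes Abcg5 (74.2 in the knockout, 115 in the control) and Abcg8 (51.9 in the knockout, 75.0 in the control) were lower, and so was Npc1l1, the sterol importer, at 131 in the knockout and 215 in the control. Abca1, the exporter by which LXR activity is often judged, was at 4.84 in the knockout and 5.23 in the control.

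Arachidonate freed from phospholipids feeds eicosanoid synthesis. Of 9 genes in that list, 1 was called higher and 3 lower (44.4% called, against 32.3% of all genes), with a median of -0.35. Hpgd, which inactivates prostaglandins, was at 21.4 in the knockout and 74.9 in the control, 3.38-fold lower. Ptges3, a co-chaperone that is also a prostaglandin E synthase, was at 47.4 in the knockout and 28.3 in the control. Alox5ap, which presents arachidonate to 5-lipoxygenase and also stands in the tuft cell list, was at 1.45 in the knockout and 3.30 in the control, and Ptgis was at 0.59 in the knockout and 1.33 in the control, included only through the control. Ptgs1 was at 1.60 in the knockout and 0.88 in the control, just under the threshold, and Alox5 stayed below 1 in both.

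The samples differed in more than these genes. Myh9 was at 13.6 in the knockout and 99.5 in the control, 6.89-fold lower, and none of the 8 members lies on its chromosome, 15. The epithelial markers Epcam (633 in the knockout, 680 in the control), Cdh1 and Krt8 were within 1.4-fold, and of the 8 epithelial markers 2 were higher, Krt18 (488 in the knockout, 250 in the control) and Krt20 (615 in the knockout, 435 in the control), and none was lower. The depth of the libraries is unknown, so no counting error can be attached to a level. The counts of marker lists stand against 15.9% of all genes called higher and 16.3% called lower. Of the absorptive enterocyte markers 33.3% were called in either direction and of the epithelial markers 25.0%, against 32.3% of all genes. The other marker lists given here had larger shares called, from 45.5% for goblet cells to 100% of the 3 neutrophil markers. Where a marker reached a level of 1 in only 1 of the samples, its inclusion fixed its direction. Crypt-base stem cell markers were lower in 8 of 14 genes (summed level 216 in the knockout, 782 in the control; 2 of the 14 were included only through the control), Paneth cell markers in 11 of 14 (12295 in the knockout, 23692 in the control), goblet cell markers in 5 of 11 (12827 in the knockout, 17228 in the control), tuft cell markers in 7 of 10 (18.7 in the knockout, 34.7 in the control; 3 of the 7 were included only through the control) and T cell and intraepithelial lymphocyte markers in 12 of 17 (523 in the knockout, 1110 in the control). In these lists, 1 stem cell marker and 1 Paneth cell marker were called higher, and no goblet, tuft or T cell marker was. The sums add levels of different genes although their unit may not be per length, so a single gene can carry a sum. Olfm4, which is in the stem cell sum, was at 113 in the knockout and 619 in the control. Of the absorptive enterocyte markers, 2 of 18 were higher and 4 lower (27061 in the knockout, 22154 in the control), and of the enteroendocrine markers 7 of 15 were higher and 2 lower (517 in the knockout, 519 in the control). B and plasma cell markers were higher in 3 of 6 (755 in the knockout, 234 in the control). Macrophage and dendritic cell markers were higher in 6 of 11 and lower in 3 (57.1 in the knockout, 57.6 in the control), but 4 of the 6 were included only through the knockout. Neutrophil markers were higher in 3 of 3 (12.3 in the knockout, 2.58 in the control), of which S100a9 and Ly6g, both listed at 0 in the control, passed on their knockout level alone. Fibroblast and smooth muscle markers were higher in 4 of 8 and lower in none (42.9 in the knockout, 41.9 in the control), and 3 of the 4 were included only through the knockout. Markers of the distal intestine were higher in 5 of 9 and lower in 3 (1871 in the knockout, 1074 in the control), and 1 of the 5 was included only through the knockout. Fabp6 was at 741 in the knockout and 125 in the control, while Cubn was at 4.05 in the knockout and 25.7 in the control. Without Fabp6 and Muc3 the distal sum was 805 in the knockout and 888 in the control. Proximal markers summed to 7718 in the knockout and 4739 in the control. They were lower in 5 of 9 and higher in 1, Fabp1, without which their sum was 1669 in the knockout and 1722 in the control. Of the 5 lower proximal markers, 1 was included only through the control. Endothelial markers were not analysed here. The part of cell composition or of the stretch of intestine in the acyltransferase levels was not tested, and in a bulk sample fewer cells of a type and less RNA per cell cannot be told apart.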

How the data were processed

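RNA sequencing of intestinal epithelium from 1 Myh9 knockout and 1 control mouse was used. Per the submitters' processing notes, HISAT2, StringTie and mm10 were involved, with neither versions nor roles. The authors deposited 1 signal value per gene and sample, an expression level of unstated unit. No deposited value was below 1, so 1 was taken to have been added by the authors and was subtracted. The authors' deposited fold is the ratio of knockout to control values as deposited (largest relative difference 1.22e-07). Columns were assigned to samples by the animal number they carry. The summed levels were 634492 in the knockout and 671114 in the control; depth is unknown.

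Log2 folds used a pseudocount of 1, kept genes that reached 1 in either sample, and called them at the 1.4-fold threshold of the labels. No test was made, since each group has 1 sample; the calculation was tested on simulated data with known folds. The members, lists and rules were chosen with earlier results of these data known. Named were all members, Myh9, the 5 genes nearest to Mboat1, and in each pathway list its defining genes and up to 3 called genes per direction; Elovl6 was named after its value was seen, as were the genes Emg1, Tsen34 and Egfl7 that overlap members and the markers Krt18, Krt20, Ly6g, Cubn, Muc3 and Fabp1. The alternatives tried were pseudocounts of 0.1 and 0, no minimum level or 5, a 2-fold threshold and 3 rescalings. Positions came from GENCODE M21, in which 12229 row names were found; older symbols were paired through RefSeq. Words of 50 bases were compared with all GENCODE transcripts. Python 3.11.15, pandas 2.3.3 and numpy 2.4.6 were used.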

Additional observations from a re-analysis of the deposited data

How the results depend on the processing

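The calls of Mboat1, Mboat2, Lpcat4 and Agpat3 kept their direction under the 2 other pseudocounts and the 3 rescalings, and Mboat1, Lpcat4 and Agpat3 also under the minimum level of 5, which Mboat2 did not reach. The log2 fold of Mboat1 ranged from 3.41 to 3.78, that of Lpcat4 from 2.63 to 2.84, that of Agpat3 from -0.81 to -0.67, and that of Mboat2 from 1.06 to 3.30. Lpgat1 fell short of a call under the upper-quartile scaling, at 0.48, and that rescaling multiplied the knockout by 0.975. Rescaling without mitochondrial-genome and the 20 most abundant genes used a factor of 1.08 on the knockout and moved the median of all genes to 0.0953. It gave 2455 higher and 1552 lower genes (61.3% higher among those called, against 49.4% unscaled). It took the members' median to 0.52, past the 1.4-fold line. Of the pathway genes, 23 were then higher and 16 lower, against 18 higher and 28 lower unscaled. At 2-fold, 0 members were called lower, 5 pathway genes were higher and 3 lower, and 546 of all genes were higher and 520 lower, 8.77% called. At a minimum level of 5, which tests fewer genes, 1284 of all genes were lower. For single pathway lists, 36 counts moved by more than 1.5 times, or to or from 0. The other 217 values were counts that moved less and medians, all of which stayed within 1.4-fold. Some medians changed sign. That of glycerol-3-phosphate acyltransferases and phosphatidate phosphatases went from 0.23 to -0.03 at a minimum level of 5. That of phosphatidylcholine and phosphatidylethanolamine synthesis went from -0.06 to 0.05 under the factor of 1.08. No paired analysis was possible because each group holds 1 sample, and for the same reason no replicate could be left out. The depth is unknown, so low levels such as those of Mboat2 have no error.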
